A study of Mus musculus with 7 samples.

Results

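Hand2 and 9 genes that lie near it on mouse chromosome 8 were followed in the atrioventricular canal of embryos that lack HAND2. The neighbours were taken by symbol: Scrg1, Sap30, Hmgb2, Galnt7, Fbxo8, Hpgd, Gpm6a, Clcn3 and Nek1, all within 4 Mb of Hand2. They are 9 of the 27 genes other than Hand2 with a row there, listed with earlier results of these data known. All 10 genes had a row among the 23284 gene symbols counted. The canal is the constriction of the heart tube between atrium and ventricle, and the series title ties the comparison to valve development. Per the labels, the null group carries a Hand2 d/d genotype, in which Cre removed all coding sequence of the gene in the germline, so every tissue of the embryo lacks it. The controls are labelled wild type, and both groups come from outbred NMRI mice at 18 to 23 somites (from embryonic day 9.0 per the labels, against day 9.5 in the titles). Each library holds 4 pooled canals. There were 4 null libraries (replicates 1 to 4) and 3 wild-type libraries (replicates 2 to 4), since 1 wild-type pool was dropped for its RNA quality.

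HAND2 belongs to the helix-loop-helix class of DNA-binding regulators. It pairs with E proteins, binds E-box sequences in DNA, and is known for its part in the growth of the heart and the limb. Genes next to a deleted gene can differ between genotypes because they answer to the lost protein, because regulatory DNA was removed, or because embryos homozygous for a targeted allele are also homozygous for the stretch of chromosome around it. Read counts per gene carry no sequence variants, so flanking alleles and regulation cannot be told apart here.

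The libraries held 27905601 to 44860753 reads in genes. The markers of the dissected tissue were present in every library. The 6 cardiomyocyte markers summed to 16235 to 23242 CPM (the counts-per-million scale: a gene's reads over all reads in genes of that library) in null and 17337 to 18863 CPM in wild-type libraries. None of them was called by edgeR or limma-voom, and 1 had an unadjusted p under 0.05, while DESeq2 called Actn2 (edgeR log2 fold change 0.71, adjusted p = 0.0581). The 4 markers of canal myocardium summed to 167 to 217 CPM in null and 150 to 262 CPM in wild type. Markers of 2 other compartments separated the genotypes: 5 cushion mesenchyme markers summed to 63.1 to 91.2 CPM in null against 128 to 254 CPM in wild type, and 6 endothelial markers to 310 to 360 CPM against 236 to 243 CPM. In the first list Sox9, Twist1, Snai1 and Postn fell (4 of 5), and in the second Pecam1 and Tie1 rose (2 of 6). The 6 erythroid markers summed to 5605 to 14518 CPM in null and 9337 to 22055 CPM in wild type, with Klf1 lower, and the 7 foregut markers to 1.93 to 16.6 CPM and 3.15 to 9.30 CPM. In bulk tissue, fewer cells of a type and less RNA per cell cannot be told apart.

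The sequence just before the transcription start is shown for Hand2 and for 3 neighbours that rose in the null, because HAND2 acts through E-boxes and these are the places where such letters would stand closest to the start. The sequences are from RefSeq (GRCm38.p6), 250 bases that end at the base before the annotated start, written 5′ to 3′ on the gene's own strand. Capitals mark every E-box (CANNTG, where N is any base, so that 1 search covers both strands).
Hand2, chr8:57320733-57320982, plus strand: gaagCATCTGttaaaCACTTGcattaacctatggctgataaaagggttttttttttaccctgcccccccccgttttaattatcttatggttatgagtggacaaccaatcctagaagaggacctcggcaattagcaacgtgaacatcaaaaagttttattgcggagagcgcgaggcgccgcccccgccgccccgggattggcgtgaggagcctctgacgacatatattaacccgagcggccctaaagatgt
Hpgd, chr8:56294302-56294551, plus strand: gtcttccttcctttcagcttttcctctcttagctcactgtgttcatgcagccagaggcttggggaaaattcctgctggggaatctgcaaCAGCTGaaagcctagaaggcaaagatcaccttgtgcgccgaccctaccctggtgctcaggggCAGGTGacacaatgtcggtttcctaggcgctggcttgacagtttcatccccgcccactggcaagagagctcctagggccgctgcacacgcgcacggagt
Gpm6a, chr8:54779184-54779433, plus strand: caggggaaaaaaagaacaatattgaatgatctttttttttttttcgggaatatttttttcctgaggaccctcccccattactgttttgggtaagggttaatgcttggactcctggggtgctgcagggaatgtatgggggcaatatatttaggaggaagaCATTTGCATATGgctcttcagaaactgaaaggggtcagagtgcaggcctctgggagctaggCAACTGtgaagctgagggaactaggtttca
Clcn3, chr8:60983312-60983561, minus strand: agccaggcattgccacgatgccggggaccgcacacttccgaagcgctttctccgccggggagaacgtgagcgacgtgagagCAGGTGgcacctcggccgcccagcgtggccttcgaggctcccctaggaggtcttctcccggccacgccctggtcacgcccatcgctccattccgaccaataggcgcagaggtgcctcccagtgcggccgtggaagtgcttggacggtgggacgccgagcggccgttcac

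Hand2 held 2 E-boxes, CATCTG at -246 and CACTTG at -235 from its start. Hpgd held CAGCTG at -161 and CAGGTG at -99. The outer start of Gpm6a had 3 and that of Clcn3 had 1. Both genes have a second, inner start, not shown, with 1 E-box in Gpm6a and 0 in Clcn3. Of the neighbours tested but not called, also not shown, Sap30 held CAGGTG at -35, and Hmgb2, Galnt7 and Fbxo8 held 0. Whether E-boxes go with the rise in the null was not tested. RefSeq gave 10 such windows for 8 of the 10 genes. The promoters of Scrg1 and Nek1 were not analysed here. An E-box occurred in 6 of the 10 windows, and in 66.2% of all 32851 promoter windows of this length. The form CATCTG, searched on both strands, is known to bind pairs of HAND and E proteins. It is 1 of the forms of CANNTG and occurred in the window of Hand2 alone, and in 14.4% of all windows. The hypoxia element cores ACGTG and GCGTG, searched on both strands, occurred in 4 and 5 of the 10 windows against 16.6% and 28.2% of all. The GATA core GATAA occurred in 2 of the 10 (22.6% of all), and CCAAT in 3 (33.8% of all), with 4 copies in the window of Hmgb2. ACGTG can overlap an E-box of the form CACGTG. These letters describe the windows and do not show that a factor binds there.

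Hand2 had 7, 26, 10 and 14 reads in null replicates 1 to 4. Wild-type replicates 2 to 4 had 2123, 1224 and 1194 reads. The groups were thus far apart, at 0.422 ± 0.259 CPM (SD, n = 4) against 44.2 ± 2.76 CPM (SD, n = 3). On the log2 scale the null differed by -6.74 (SE 0.301), with an edgeR adjusted p = 5.72e-07. The 7 labels were thus borne out. Reads remained in every null library, at 0.425% of the wild-type mean in replicate 1, 1.79% in replicate 2, 0.790% in replicate 3 and 0.814% in replicate 4. The count of 7 has an exact 95% Poisson interval of 2.81 to 14.4 reads and the count of 26 one of 17.0 to 38.1, so these libraries differed beyond counting error. The intervals cover counting error only. Coding bases make up 651 of the 2351 exonic bases of Hand2 (27.7%, GENCODE M21 annotation), in 2 exons. The counts do not show where within the gene the remaining reads lie. Null replicate 2, with the most Hand2 reads, also had the largest share of reads in no gene (14.21%, against 7.31% to 9.51% in the other null libraries), and the part of that share in its Hand2 count was not tested.

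**Figure D1:**
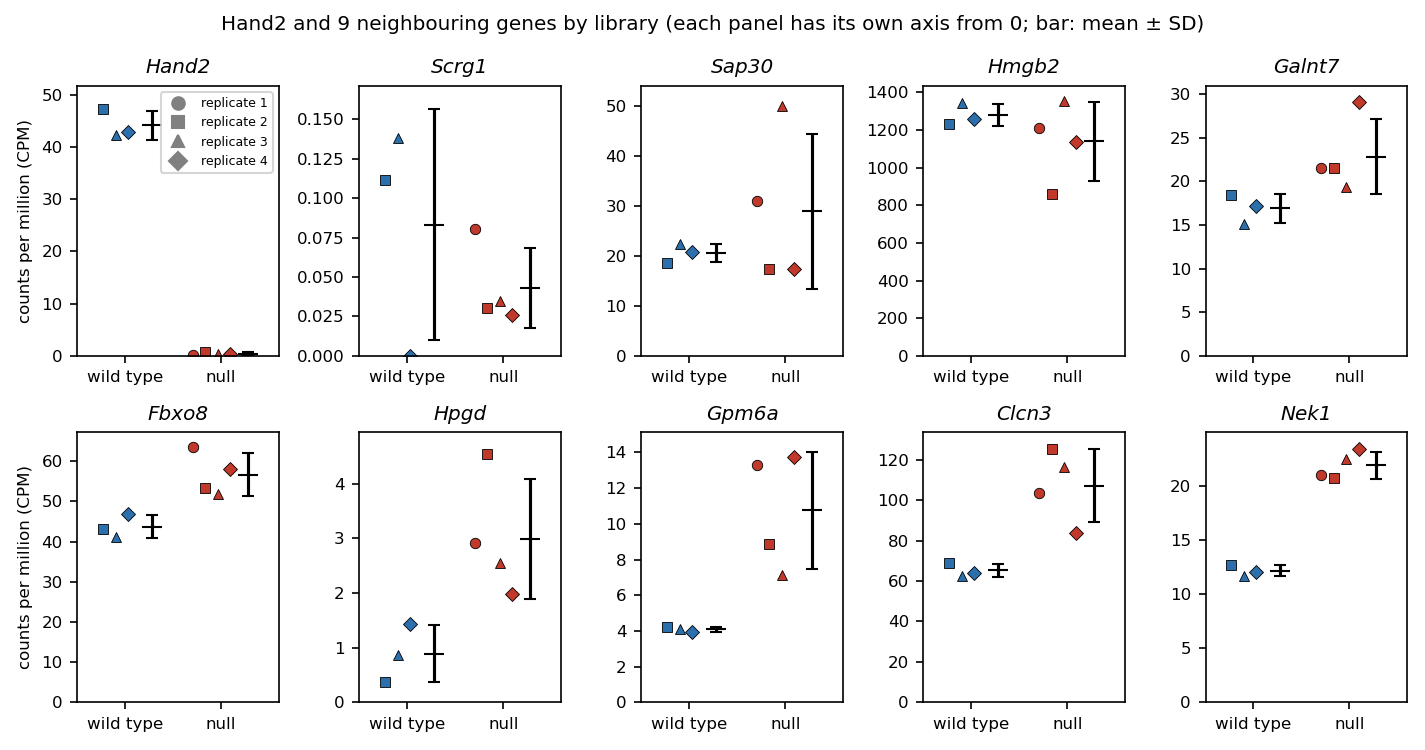
Level (CPM, the counts-per-million scale) of the 10 genes in each library, 1 panel per gene with its own axis from 0; blue points are the 3 wild-type and red points the 4 Hand2 null libraries, marker shape gives the replicate number, and the bar gives the mean ± SD. Hand2 is near 0 in the null, Hpgd, Gpm6a, Clcn3, Nek1, Galnt7 and Fbxo8 lie higher in every null library than in any wild-type one, and Scrg1, Sap30 and Hmgb2 overlap.

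Among the 9 neighbours, Hpgd, Gpm6a, Clcn3 and Nek1 rose in the null, and none fell. Over all 14290 genes tested, 4.11% were called higher, 2.13% lower and 6.24% in either direction (edgeR quasi-likelihood test, adjusted p under 0.05). Scrg1 had too few reads to be tested, so the call was possible for 8 of the 9. Of these 8, 7 had a log2 fold change above 0 and the median was 0.59, against 52.3% above 0 and a median of 0.02 over all genes. Values of 6 neighbours in the null did not overlap those in wild type, all of them higher, a pattern found for 11.6% of all genes tested (10.3% had the null below). The neighbours were listed with results of these data in view, so these shares describe the list and are not a test of it. The embryos, and so any flanking DNA, are the same for all 9 genes, which are not independent of each other.

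Nek1 encodes a NIMA-related kinase of cilia and DNA repair. It measured 21.0, 20.7, 22.5 and 23.4 CPM in null replicates 1 to 4 and 12.7, 11.7 and 12.04 CPM in wild-type replicates 2 to 4. Each genotype was tight, with a coefficient of variation of 5.78% in null and 4.24% in wild type, and the ranges were well apart. The log2 fold change was 0.83 (SE 0.149, edgeR adjusted p = 0.00750), or 1.78-fold. It stayed between 0.80 and 0.88 whichever library was left out, and the adjusted p passed 0.05 only without wild-type replicate 2 (0.0531). None of the 10 other NEK family genes listed was called (7 tested, median log2 fold change 0.28). The most abundant of them, Nek7, had 72.4 ± 4.52 CPM in null and 68.0 ± 6.51 CPM in wild type (SD, n = 4 and 3).

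Clcn3, the next gene to Nek1 in the order of the counted rows, encodes a chloride and proton exchanger of endosomes and synaptic vesicles. It had 104, 125, 116 and 83.6 CPM in null replicates 1 to 4 and 69.1, 62.5 and 64.1 CPM in wild-type replicates 2 to 4. Null replicate 4 was the lowest of its group and still above all wild-type libraries. The log2 fold change was 0.70 (SE 0.153, edgeR adjusted p = 0.0208), or 1.62-fold. The value held between 0.64 and 0.79 with any 1 library left out, but the call was lost in 5 of those 7 fits. Leaving out null replicate 1 or 2 gave an adjusted p of 0.0629 or 0.0548, and leaving out wild-type replicate 2, 3 or 4 gave 0.0935, 0.104 or 0.0607. Of 9 other genes of the CLC group, 1 rose, none fell and 8 were tested (median log2 fold change 0.32). That gene was the endosomal exchanger Clcn6, at 8.68 ± 1.63 CPM in null and 4.13 ± 0.411 CPM in the controls (log2 fold change 1.05, SE 0.210, edgeR adjusted p = 0.0131).

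Gpm6a encodes a proteolipid membrane glycoprotein best known from neurons, where it acts in the growth of filopodia and neurites. It measured 13.3, 8.89, 7.12 and 13.7 CPM in null replicates 1 to 4 and 4.24, 4.12 and 3.94 CPM in wild-type replicates 2 to 4. The null libraries spread widely (coefficient of variation 30.4%) and the wild-type libraries hardly at all (3.60%), with no overlap. The log2 fold change was 1.38 (SE 0.256, edgeR adjusted p = 0.00894), or 2.60-fold, and of the 7 fits with 1 library left out, the call was lost only without wild-type replicate 2 (1.39, adjusted p = 0.0549). Markers of neural and neural crest cells went the other way, with 7 genes summing to 6.38 to 9.62 CPM in null and 13.9 to 44.5 CPM in wild type, of which Tubb3 was called lower. The 6 endothelial markers, of which Pecam1 and Tie1 rose, separated the genotypes in the same direction as Gpm6a (310 to 360 CPM in null, 236 to 243 CPM in wild type). The 6 epicardial markers summed to 59.1 to 73.8 CPM in null and 42.4 to 62.6 CPM in wild type. None of these 6 was called by edgeR, DESeq2 or limma-voom, and 2 had an unadjusted p under 0.05. The part of other cell types in the Gpm6a result was not tested. Its relative Gpm6b was not called, and had 8.66 ± 1.31 CPM in null and 9.31 ± 2.06 CPM in wild type (SD, n = 4 and 3).

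Hpgd encodes the dehydrogenase that inactivates prostaglandins. It had 109, 149, 73 and 77 reads in null replicates 1 to 4 and 17, 25 and 40 reads in wild-type replicates 2 to 4. In CPM these were 2.92, 4.54, 2.55 and 1.98 against 0.379, 0.865 and 1.43. Every null library was above every wild-type one, though wild-type replicate 4 came close to null replicate 4. The log2 fold change was 1.75 (SE 0.454, edgeR adjusted p = 0.0439), or 3.35-fold. Over the 7 fits with 1 library left out it ranged from 1.35 to 2.25, and the call was lost in 4 of them. It was lost when null replicate 1 was dropped (log2 fold change 1.72, adjusted p = 0.0932) and when null replicate 2 was (1.51, adjusted p = 0.110). It was also lost on dropping replicate 2 of the wild type (1.35, adjusted p = 0.165) or its replicate 3 (1.75, adjusted p = 0.140). Dropping its replicate 4 gave 2.25. Of 22 other genes of prostaglandin synthesis, transport, breakdown and reception, 15 were tested and none was called (median log2 fold change -0.02). The most abundant was the synthase and chaperone gene Ptges3, with 2295 ± 176 CPM in null and 3097 ± 288 CPM in the controls (log2 fold change -0.45, edgeR adjusted p = 0.0766).

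Galnt7 and Fbxo8 were higher in every null library, but did not pass the threshold. Galnt7 encodes an enzyme that extends mucin-type O-glycans, and it had 21.5, 21.5, 19.4 and 29.0 CPM in null replicates 1 to 4 and 18.5, 15.1 and 17.1 CPM in wild-type replicates 2 to 4. Null replicate 4 stood highest, and null replicate 3 lay within 1 CPM of wild-type replicate 2. Its log2 fold change was 0.42 (SE 0.171, edgeR adjusted p = 0.160). Fbxo8 encodes an F-box protein with a Sec7 domain, of the kind that acts on ARF GTPases. It had 63.4, 53.4, 51.7 and 58.1 CPM in null and 43.2, 41.2 and 46.9 CPM in wild type, and its log2 fold change was 0.36 (SE 0.139, edgeR adjusted p = 0.141). The unadjusted p was 0.0320 for Galnt7 and 0.0248 for Fbxo8, as for many genes here, since 24.4% of all genes had an unadjusted p under 0.05. No fit with 1 library left out called either gene (adjusted p = 0.0901 to 0.446 for Galnt7 and 0.0940 to 0.395 for Fbxo8). None of 17 other GALNT genes was called (10 tested, median 0.07). Galnt1, the most abundant, had 67.5 ± 12.7 CPM in null and 93.6 ± 13.7 CPM in wild type. None of 18 other SCF and ARF exchange factor genes was called (16 tested, median -0.18), and Skp1a, the most abundant, had 531 ± 77.5 CPM in null and 631 ± 42.0 CPM in wild type.

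Sap30 and Hmgb2, both chromatin genes close to Hand2, overlapped between genotypes. SAP30 is a subunit of the SIN3 histone deacetylase complex. It measured 31.1, 17.4, 50.2 and 17.4 CPM in null replicates 1 to 4 and 18.7, 22.4 and 20.9 CPM in wild-type replicates 2 to 4. Null replicates 1 and 3 lay above all wild-type libraries and null replicates 2 and 4 below them, a coefficient of variation of 53.5% in null against 9.02% in wild type. The log2 fold change was 0.49 (SE 0.339, edgeR adjusted p = 0.408), and 0.07 without null replicate 3. Of 17 other genes of the complex, 16 were tested and edgeR called none (median log2 fold change -0.11). Rbbp7, the most abundant, had 794 ± 52.0 CPM in null and 614 ± 67.5 CPM in the controls (log2 fold change 0.35, edgeR adjusted p = 0.131).

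Hmgb2, a DNA-bending protein gene used as a marker of dividing cells, was by far the most abundant of the 10. It had 1210, 858, 1354 and 1137 CPM in null replicates 1 to 4 and 1231, 1344 and 1260 CPM in wild-type replicates 2 to 4. Null replicate 2 was lowest and the other 6 libraries were mixed, and its log2 fold change was -0.18 (SE 0.172, edgeR adjusted p = 0.573). The 20 mitosis markers summed to 2873 to 3702 CPM in null and 3353 to 3576 CPM in wild type, and edgeR called none of them. Null replicate 2, lowest in Hmgb2, had 3102 CPM of these markers, and null replicate 3, highest in Hmgb2, had 2873 CPM. Among 9 other HMG chromatin genes, 7 were tested, 2 fell and none rose (median log2 fold change -0.43). Those that fell were Hmgn2, from 1806 ± 41.4 to 1253 ± 89.5 CPM (log2 fold change -0.54, edgeR adjusted p = 0.0274), and Hmgn3, from 73.6 ± 4.89 to 45.0 ± 4.44 CPM (-0.72, edgeR adjusted p = 0.0107; SD, n = 3 and 4). Hmgb1 and Hmgn5 were also lower in every null library, without passing the edgeR threshold. Their log2 fold changes were -0.43 (edgeR adjusted p = 0.0559) and -0.54 (edgeR adjusted p = 0.0829). DESeq2 called both, beside Hmgn2 and Hmgn3.

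Scrg1, the next row after Hand2, encodes a small secreted protein known from cartilage and brain. It had 3 reads in null replicate 1, 1 in each other null library, and 5, 4 and 0 reads in wild-type replicates 2 to 4. A limit of 3 reads corresponds to 0.0669 to 0.1075 CPM in these libraries. Only wild-type replicates 2 and 3 were above it, so no fold change is given and a difference was not detectable at this depth.

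Among the other helix-loop-helix genes, which include the partners and inhibitors of HAND2, 18 were listed and 14 tested, of which 2 fell and none rose (median log2 fold change -0.10). Those that fell were Twist1, from 19.8 ± 3.25 to 4.66 ± 2.15 CPM (log2 fold change -2.10, SE 0.301, edgeR adjusted p = 0.00194), and Twist2, from 2.97 ± 0.642 to 1.31 ± 0.263 CPM (-1.20, SE 0.310, edgeR adjusted p = 0.0427; SD, n = 3 and 4). Twist1 is also 1 of the cushion mesenchyme markers, whose sum was lower in the null. The paralogue Hand1 had 95.5 ± 26.2 CPM in null and 102 ± 31.5 CPM in wild type, and was not called (log2 fold change -0.10, edgeR adjusted p = 0.846). The E protein genes Tcf3, Tcf4 and Tcf12 had log2 fold changes of -0.30, 0.30 and -0.41 (adjusted p = 0.413, 0.363 and 0.175).

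Several of the gene lists held no gene called by edgeR. At an unadjusted p under 0.05 they held 3 of 16 tested genes of the SIN3 complex, 5 of 20 mitosis markers, 2 of 10 GALNT genes, 6 of 15 prostaglandin genes, 1 of 16 SCF and ARF genes, and 0 of 7 NEK genes, against 24.4% of all genes. DESeq2 called 1, 2, 0, 3, 0 and 0 of them in that order, against 13.3% of all genes it tested, and limma-voom called 0 in each. The prostaglandin genes called by DESeq2 were Ptges2, Ptges3 and Slco2a1.

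Levels of different genes were compared per kilobase of exon (lengths from GENCODE M21 on GRCm38, while the reads were counted on mm9). In wild type, Hmgb2 stood at 486 ± 22.2 CPM per kb, followed by Hand2 (18.8 ± 1.17), Sap30 (17.5 ± 1.58), Fbxo8 (12.3 ± 0.808), Clcn3 (10.1 ± 0.527), Galnt7 (3.76 ± 0.374), Nek1 (2.16 ± 0.0917), Gpm6a (1.27 ± 0.0459), Hpgd (0.530 ± 0.314) and Scrg1 (0.119 ± 0.105; SD, n = 3 each). Hand2 and Sap30 overlapped between libraries, and every other pair of neighbours in this order was apart. In the null, Hand2 dropped from place 2 to place 9 of the 10 (0.179 ± 0.110 CPM per kb, n = 4) and overlapped Scrg1 (0.0612 ± 0.0361). Sap30 (24.6 ± 13.2), Clcn3 (16.6 ± 2.78) and Fbxo8 (15.9 ± 1.48) overlapped, as did Nek1 (3.89 ± 0.225) with Gpm6a (3.35 ± 1.02), and Gpm6a with Hpgd (1.78 ± 0.652).

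**Figure D2:**
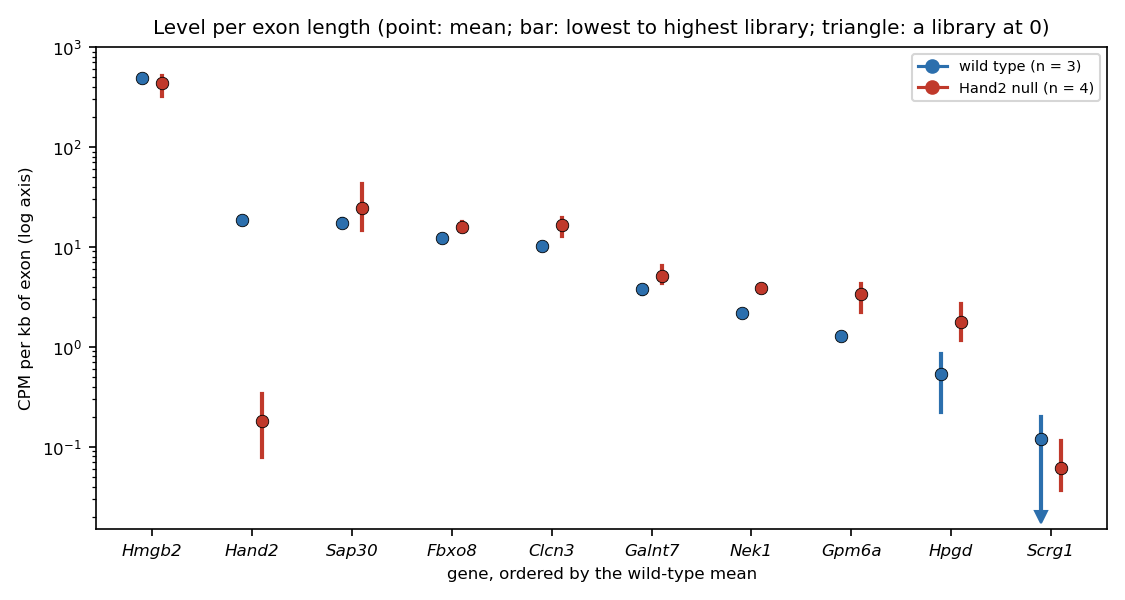
Level of each gene in CPM per kb of exon on a log axis, with genes ordered by the wild-type mean; points are means, bars run from the lowest to the highest library, blue is wild type (n = 3) and red is Hand2 null (n = 4), and a triangle marks a library at 0 (Scrg1, wild-type replicate 4). Hmgb2 is far above the others in both genotypes, and Hand2 drops from place 2 to place 9.

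The 9 neighbours were then set among the other counted genes of the same stretch. Cep44, a coding gene of this stretch, was not matched to a row and was not analysed here, so neighbours in order are neighbours among the matched rows. The count files held rows for 27 genes other than Hand2 within 4 Mb, of which 18 could be tested. Of these, 5 were higher and 1 lower (33.3% called, against 6.24% of all genes), and their median log2 fold change was 0.27. The 18 rows outside the 9 neighbours gave 10 tested genes, of which 1 was higher and 1 lower, with a median of -0.09. Within 1 Mb of Hand2, 1 of 6 tested genes was called, and that was Hpgd, the row next but 1 before Hand2. Fbxo8, between Hpgd and Hand2, and Sap30, Hmgb2 and Galnt7 on the other side were not called. Between 1 and 2 Mb no gene could be tested. Between 2 and 4 Mb, 5 of 12 tested genes were called (41.7%). Beyond that, 1 of 21 genes from 4 to 10 Mb (4.76%) and 47 of 703 on the rest of chromosome 8 (6.69%) were called. Chromosome 8 as a whole had 7.28% called, within the range of 4.84% to 7.68% over the 20 chromosomes other than Y. Distances were taken between the nearest ends of 2 genes in GRCm38 and serve only to bin the genes. Hpgd is at the edge of the first bin: its start lies more than 1 Mb from that of Hand2, so the only call within 1 Mb depends on this measure.

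**Figure D3:**
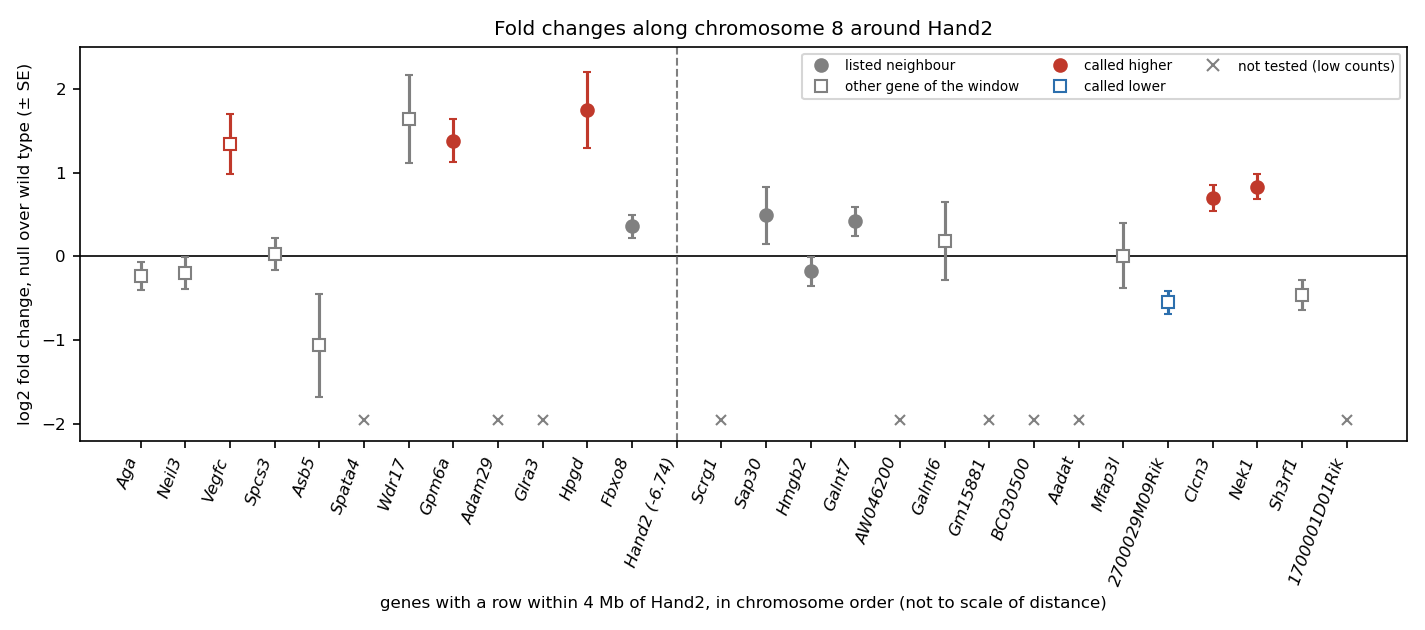
Log2 fold change (null over wild type, ± SE) of the genes with a row within 4 Mb of Hand2, in chromosome order and not to scale of distance; filled circles are the listed neighbours, open squares other genes, red is called higher, blue called lower, grey not called, crosses mark genes with too few reads to test, and the dashed line marks Hand2 (-6.74, off the scale). Of the called genes Hpgd is nearest to Hand2, and the others (Vegfc, Gpm6a, 2700029M09Rik, Clcn3 and Nek1) lie further out on both sides.

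The called genes outside the list were Vegfc and 2700029M09Rik (Hpf1 in current naming). Vegfc, the lymphatic growth factor, had 12.6, 6.64, 16.3 and 5.98 CPM in null replicates 1 to 4 and 4.39, 4.67 and 3.19 CPM in wild-type replicates 2 to 4. Null replicates 1 and 3 were its highest libraries, as they were for Sap30. Its log2 fold change was 1.34 (SE 0.361, edgeR adjusted p = 0.0491), and the call was lost in 5 of the 7 fits with 1 library left out (adjusted p up to 0.165), with upper-quartile scaling (0.0510) and with limma-voom (0.0919). 2700029M09Rik, whose product is a partner of PARP enzymes in DNA repair, had 49.7, 46.4, 55.2 and 52.8 CPM in null and 73.5, 77.5 and 70.9 CPM in wild type. Its log2 fold change was -0.55 (SE 0.134, edgeR adjusted p = 0.0325), also lost in 5 of 7 such fits (up to 0.168). It is followed in order by Clcn3, Nek1 and Sh3rf1. Across these 4 rows in a line, 1 fell, 2 rose, and Sh3rf1 had 17.4 ± 2.99 CPM in null and 23.8 ± 0.698 CPM in the controls without passing the threshold (log2 fold change -0.46, edgeR adjusted p = 0.131). Just beyond 4 Mb on that side, Cbr4 overlapped between genotypes (log2 fold change -0.05, adjusted p = 0.888). On the other side the first row beyond, Gm2516, was at 0 reads in every library. Within 1 Mb the remaining rows were Galntl6, with a log2 fold change of 0.18 (SE 0.466), and AW046200, with 0 to 3 reads per library.

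Each library was left out in turn to see how far the calls rest on it. All 4 neighbours were called again when null replicate 3 or null replicate 4 was dropped. Dropping replicate 4 of the wild type left Hpgd, Gpm6a and Nek1 (3 genes). Gpm6a and Nek1 (2 genes) were left on dropping null replicate 1, null replicate 2, or replicate 3 of the wild type, and also on dropping null replicate 2 together with replicate 4 of the wild type. No neighbour was called (0) on dropping replicate 2 of the wild type, the deepest library. That fit called 210 genes higher and 46 lower over the whole table, against 587 and 305, and an unadjusted p under 0.05 was found for 5 of the 8 neighbours tested. The log2 fold changes of Gpm6a, Clcn3 and Nek1 were then 1.39, 0.73 and 0.86. In none of the 15 alternatives did Hand2 or a tested neighbour change direction.

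**Figure D4:**
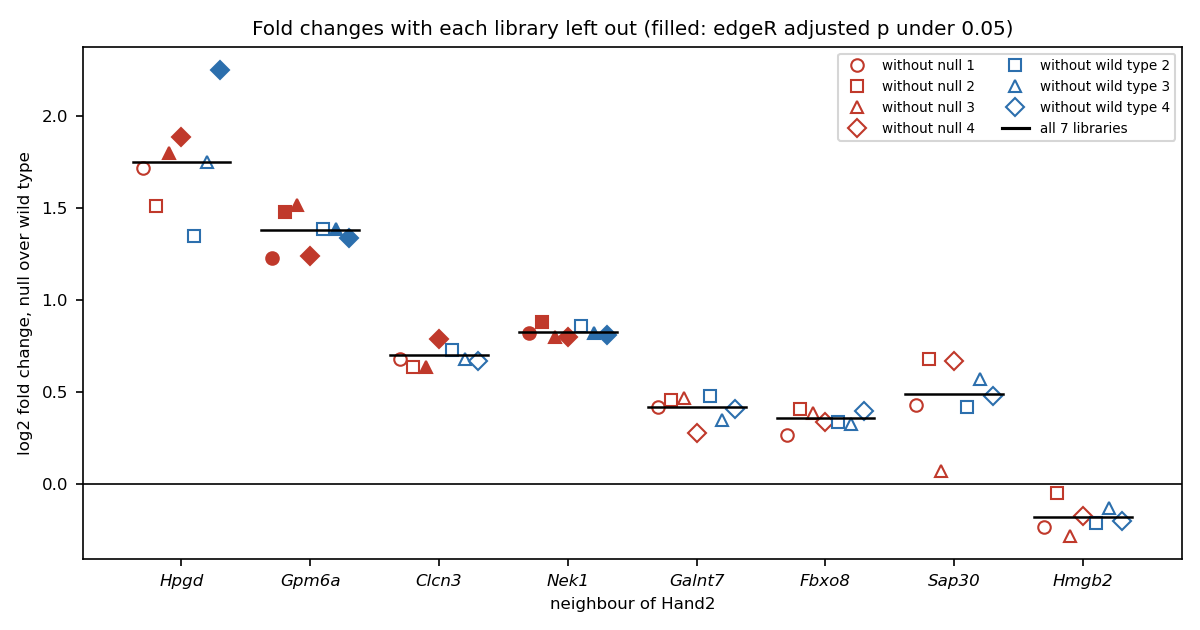
Log2 fold change (null over wild type) of the 8 tested neighbours in the fit of all 7 libraries (black line) and in each fit with 1 library left out (red, a null library; blue, a wild-type library; shape gives the replicate number); filled symbols have an edgeR adjusted p under 0.05. Nek1 stays between 0.80 and 0.88, Hpgd spreads from 1.35 to 2.25, Sap30 falls to 0.07 without null replicate 3, and all symbols of the group without wild-type replicate 2 are open.

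The genes most like each called member over the 7 libraries were found by the root mean square difference of log2 CPM after centring each gene. Closest to Hand2 were the chemokine genes Ccl2 (0.833) and Ccl7 (1.104), and then Gm5111 (1.997), all lower in the null. Ccl2 had 0.351 ± 0.277 CPM in null and 12.9 ± 3.94 CPM in wild type. The profile of Hand2 is thus mostly its drop between genotypes, and no gene follows it closely. Nek1 had much closer matches in Jarid2 (0.072), Bcar1 (0.075) and Gzf1 (0.082), and Clcn3 in Serac1 (0.067), Kdm5b (0.087) and Cep170 (0.087). Of these 6 genes, Bcar1 is on chromosome 8 and lies outside the 4 Mb window. Gpm6a was nearest to Fam164c (0.195), the endothelial connexin gene Gja4 (0.212) and the endothelial cadherin gene Pcdh12 (0.222). Gja4 had 59.1 ± 16.6 CPM in null and 24.7 ± 6.42 CPM in wild type. Hpgd was nearest to Cpeb1 (0.314), Fam163b (0.324) and Pgbd1 (0.326). The values in brackets are in log2 units, 0 would be the same profile, and no neighbour of Hand2 was among the 3 closest of another.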

How the data were processed

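The deposited files hold raw read counts per gene symbol, 1 file per library, from unstranded single reads of 50 nt (per the labels' protocols), so reads of overlapping or antisense genes cannot be told apart. The submitters' processing notes name TopHat2 2.0.13, HTSeq, SAMtools and the build mm9. The annotation and the counting mode were not given in the sources used here. Per the labels, ribosomal RNA was depleted and cDNA amplified for 8 PCR cycles, so reads are not independent molecules. The 5 summary lines of each file were left out: reads in no gene were 7.31% to 14.21%, reads in several genes 1.46% to 1.69%, and reads at several places 9.08% to 13.81%.

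CPM used all reads in genes. The test was edgeR 4.0.16 (R 4.3.3), quasi-likelihood with TMM scaling and the default filter (minimum count 10), fitted on 4 null and 3 wild-type libraries with no covariate beside genotype, and with Benjamini-Hochberg adjustment over 14290 genes. Each SE was derived from the fitted log2 value and its F statistic. Alternatives were RLE and upper-quartile scaling, other filters on low counts, DESeq2 1.42.0, limma-voom (limma 3.58.1), a replicate block and libraries left out. The fit was tested on simulated counts. It recovered 13.4% of the 1.5-fold, 64.2% of the 2-fold and 100% of the 4-fold changes put into them. The changes were put into 67, 67 and 66 genes in that order, none of them a gene with few reads. In all, 125 genes were called in the simulation, against 892 in the data. The recovered shares may thus not carry over to the data, or to genes with few reads. In the simulation a change of about 1.5-fold was mostly missed, and a gene not called is not shown to be unchanged. RefSeq (GRCm38.p6) placed 20682 symbols directly and 2318 by older names, and 284 were not placed. Profiles were compared on log2 CPM with a prior count of 2.

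The members and lists were chosen with earlier results of these data known. The genes named are the members, all rows within 1 Mb, called genes within 4 Mb, the first row beyond on each side, the called genes of each list or else its most abundant one, and the 3 closest profiles of Hand2 and each called member. Tubb3, Sox9, Snai1, Postn, Pecam1, Tie1 and Klf1 are called marker genes. Actn2, Sh3rf1, Wdr17, 1700001D01Rik, Hand1, Tcf3, Tcf4, Tcf12, Hmgb1, Hmgn5, Ptges2 and Slco2a1 fall outside this rule and were chosen after their values were seen.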

Additional observations from a re-analysis of the deposited data

Results flagged for a closer look

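Scrg1 in null replicate 1 stood apart from the other 3 null libraries, at 0.0803 CPM against 0.0257 to 0.0349 CPM. Its distance to the next library was 0.832 of the whole range, above Dixon's 95% critical value for 4 values. That value is 3 reads against 1 in each of the others, and is at the counting limit. Among 12 genes looked at in this way, chance alone would mark about 1 in 20.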

How the results depend on the processing

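Hand2 kept its direction and call under all 15 alternatives (log2 fold change -7.23 to -6.51). With RLE or upper-quartile scaling, either other filter, DESeq2 or limma-voom, the neighbours called were again Hpgd, Gpm6a, Clcn3 and Nek1. DESeq2 called more genes in all, 1015 higher and 811 lower against 587 and 305. With 1 library left out, genes called higher ranged from 210 to 946 and lower from 46 to 652, neighbours called from 0 to 4, and called genes within 4 Mb of Hand2 from 0 to 7, against 6. On dropping both null replicate 2 and replicate 4 of the wild type, these were 298, 123, 2 and 2. Dropping null replicate 3 raised the counts and dropping wild-type replicate 2 lowered them most; the cause was not tested. Windows of 1 Mb and of 2 Mb each held 1 called gene.

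Both genotypes share the replicate numbers 2 to 4, but what a shared number stands for was not tested. Deviations from the group means correlated at -0.03 for number 2, 0.576 for number 3 and 0.371 for number 4 over 8946 genes. The highest correlation of the same null library with a wild-type library of another number was 0.222, -0.025 and 0.049, in that order. Number 2 thus correlated better with another number, while numbers 3 and 4 correlated best with their own. With a replicate block, 814 genes were higher and 565 lower, and Gpm6a, Clcn3 and Nek1 were called, while Hpgd had an adjusted p of 0.0612. Null replicate 1 has no wild-type library of its number, so it added nothing to the genotype difference in that fit. Leaving it out without a block also lost Hpgd (edgeR adjusted p = 0.0932). The depth limits Scrg1, at 0 to 5 reads per library.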

Other observations

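In the same stretch of chromosome 8, 2 further rows had higher values in every null library, and they were chosen after their values were seen. Wdr17, a WD-repeat gene, had 0.723, 1.13, 0.419 and 0.976 CPM in null replicates 1 to 4 and 0.178, 0.381 and 0.215 CPM in wild-type replicates 2 to 4. Its log2 fold change was 1.64 (SE 0.522) and did not pass the threshold (edgeR adjusted p = 0.0829). 1700001D01Rik was counted 9, 32, 5 and 6 times in the null and 0, 2 and 0 times in wild type, too few for the filter on low counts, so it was not tested.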
